A study of Mus musculus with 17 samples.

Results

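The Nr4a loci are the chromatin around Nr4a1, Nr4a2 and Nr4a3, the genes of the orphan nuclear receptors Nur77, Nurr1 and NOR1. Their members were taken as every ATAC-seq peak that overlapped 1 of the 3 gene bodies, or the 20 kb on either side, in the GENCODE annotation of mm10. Of the 808470 deposited peak intervals in 17 lists, 256 met this rule, with 152 at Nr4a1, 55 at Nr4a2 and 49 at Nr4a3. Of the 256, 176 were inside the best 24389 intervals of their list. At sites with a peak inside that number in at least 2 lists lay 214, while 42 did not and are only counted here. After merging across lists the former made up 11 of the 34155 accessible sites of the series, with 8 sites at Nr4a1, 2 at Nr4a2 and 1 at Nr4a3.

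ATAC-seq marks open DNA by the places where the Tn5 transposase can insert. It was run on bone marrow-derived macrophages of male C57Bl6/J mice aged 6 to 12 weeks, cultured for 7 days with L929-conditioned medium. The mice were wild type (WT) or Nur77-KO littermates, and the cells received lipopolysaccharide (LPS), a bacterial ligand of Toll-like receptor 4, at 100 ng/ml for 0, 1 or 18 h. Each group held 3 lists, except WT at 1 h with 2, of which 1 is labelled replicate 1-2. That list may pool a pair of samples, which the labels do not settle, and it was counted as 1. The KO is whole-body: a loxP-flanked Nr4a1 was deleted by Cre driven by the CMV promoter, and mice without Cre were then bred, although the KO samples carry the genotype label cre. No label ties lists to animals, so the p-values below measure the spread between lists, which may in part be technical.

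Nr4a genes are immediate-early genes, induced within an hour of many stimuli, LPS among them. Their products bind DNA as monomers at the NBRE element and act without a known classical ligand. In macrophages Nur77 is known as a brake on inflammatory gene expression, and the 3 receptors share their DNA-binding domain closely. In several cell types cAMP-response elements near the start sites take part in their induction.

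Since the clearest LPS response below was at the promoter of Nr4a1, the promoters of the family are shown first. Each is the stretch of 250 bases before the annotated transcription start site (TSS), read in the direction of the gene from GRCm38, the same build as mm10, and none overlaps an annotated exon. The Nr4a1 gene (ENSMUSG00000023034.7) spans chr15:101254269-101274795 on the plus strand, Nr4a2 (ENSMUSG00000026826.13) chr2:57106830-57124003 on the minus strand and Nr4a3 (ENSMUSG00000028341.9) chr4:48045153-48086447 on the plus strand. The Nr4a1 stretch is chr15:101266596-101266845 on the plus strand, the Nr4a2 stretch chr2:57124004-57124253 on the minus strand and the Nr4a3 stretch chr4:48044903-48045152 on the plus strand. Capitals mark the half-site of the cAMP-response element, CGTCA, on either strand.
Nr4a1 promoter: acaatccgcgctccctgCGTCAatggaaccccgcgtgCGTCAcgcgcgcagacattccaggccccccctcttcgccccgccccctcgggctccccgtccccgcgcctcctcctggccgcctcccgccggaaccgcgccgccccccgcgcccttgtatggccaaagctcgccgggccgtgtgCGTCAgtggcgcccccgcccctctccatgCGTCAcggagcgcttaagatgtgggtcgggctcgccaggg
Nr4a2 promoter: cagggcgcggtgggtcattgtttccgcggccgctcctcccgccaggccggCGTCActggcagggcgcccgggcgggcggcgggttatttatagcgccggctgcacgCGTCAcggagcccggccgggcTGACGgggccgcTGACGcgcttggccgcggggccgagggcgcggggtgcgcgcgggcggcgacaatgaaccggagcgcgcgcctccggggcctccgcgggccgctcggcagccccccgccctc
Nr4a3 promoter: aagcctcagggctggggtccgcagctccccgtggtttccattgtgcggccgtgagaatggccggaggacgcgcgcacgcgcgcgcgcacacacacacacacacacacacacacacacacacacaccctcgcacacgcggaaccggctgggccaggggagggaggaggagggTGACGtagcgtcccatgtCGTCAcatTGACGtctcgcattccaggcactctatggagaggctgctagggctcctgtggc
The half-site occurs 4 times before Nr4a1, 4 times before Nr4a2 and 3 times before Nr4a3. Of 21888 stretches of the same length before protein-coding genes, 19% held at least 1 copy and 0.754% held at least 3. This search was added after the promoters had been read, and matches are letters, not proven binding sites. The full palindrome TGACGTCA, present in 1.84% of those stretches, was in none of the 3, nor was the NBRE, AAAGGTCA, present in 1.10%. All 3 stretches were rich in G and C, with 74.4%, 80.0% and 65.2% against a median of 53.6%, and held 34, 44 and 22 CpG dinucleotides against a median of 7.

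Since fold and p-value depend on sequencing depth, sites were compared by rank, with rank 1 the most significant peak of a list. The rank score is log2 of L over the rank, where L is 1 more than 24389, the number of intervals in the shortest list. It is 0 for a peak beyond that rank or no peak, and a rise of 1 means that the rank was halved. Differences were tested with limma over all sites and called at a Benjamini-Hochberg adjusted p under 0.05, and a two-sided exact permutation test of the same value, unadjusted, is given beside it. The depth of the lists ranged from 0.382 to 9.75 background reads per kb and was lower in KO (median 1.53, n = 9) than in WT (median 5.62, n = 8). The WT 1 h list of replicate 1-2 was the shallowest, and KO 18 h replicate 1 stood apart by its narrow intervals, with a median of 135 bp against 338 to 661 bp in the others. The macrophage label was borne out by the promoters of 8 macrophage genes, of which 6 had a peak among the best 24389 in all 17 lists and 2 in 15 and 16, while all 4 T cell, 3 B cell and 2 epithelial markers had none in any list. Among other cell types, S100a8 and Elane of neutrophils had such peaks in 15 and 14 lists, the erythroid Klf1 in 16 and the fibroblast Col1a1 in 14, and 2 of 4 neutrophil, 1 of 2 erythroid and 2 of 3 fibroblast markers had none.

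Of the 11 sites, 2 were called between 1 h and 0 h, 1 higher and 1 lower, beside 28.1% of all sites (13.7% higher and 14.5% lower). Between 18 h and 0 h, 4 were called, all lower, beside 23.7% of all sites (10.8% higher and 13.0% lower). Between KO and WT, 1 was called, lower in KO, beside 0.536% of all sites (0.179% higher and 0.357% lower). At none of the 11 was the LPS response called as different between KO and WT by limma (0.252% of all sites at 1 h and 0.0468% at 18 h). At an unadjusted p under 0.05 there was 1 of the 11 at 1 h and 2 at 18 h, beside 2421 and 2268 of all 34155 sites. The 1 at 1 h, and 1 of the 2 at 18 h, was the weak Nr4a1 site at -14.1 kb, which entered only through the WT lists at 0 h, and the other was the Nr4a1 site at -4.1 kb. The median difference over the 11 sites was -0.10 at 1 h, -0.32 at 18 h and -0.01 for KO, beside -0.02, 0.00 and -0.00 over all sites.

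**Figure D1:**
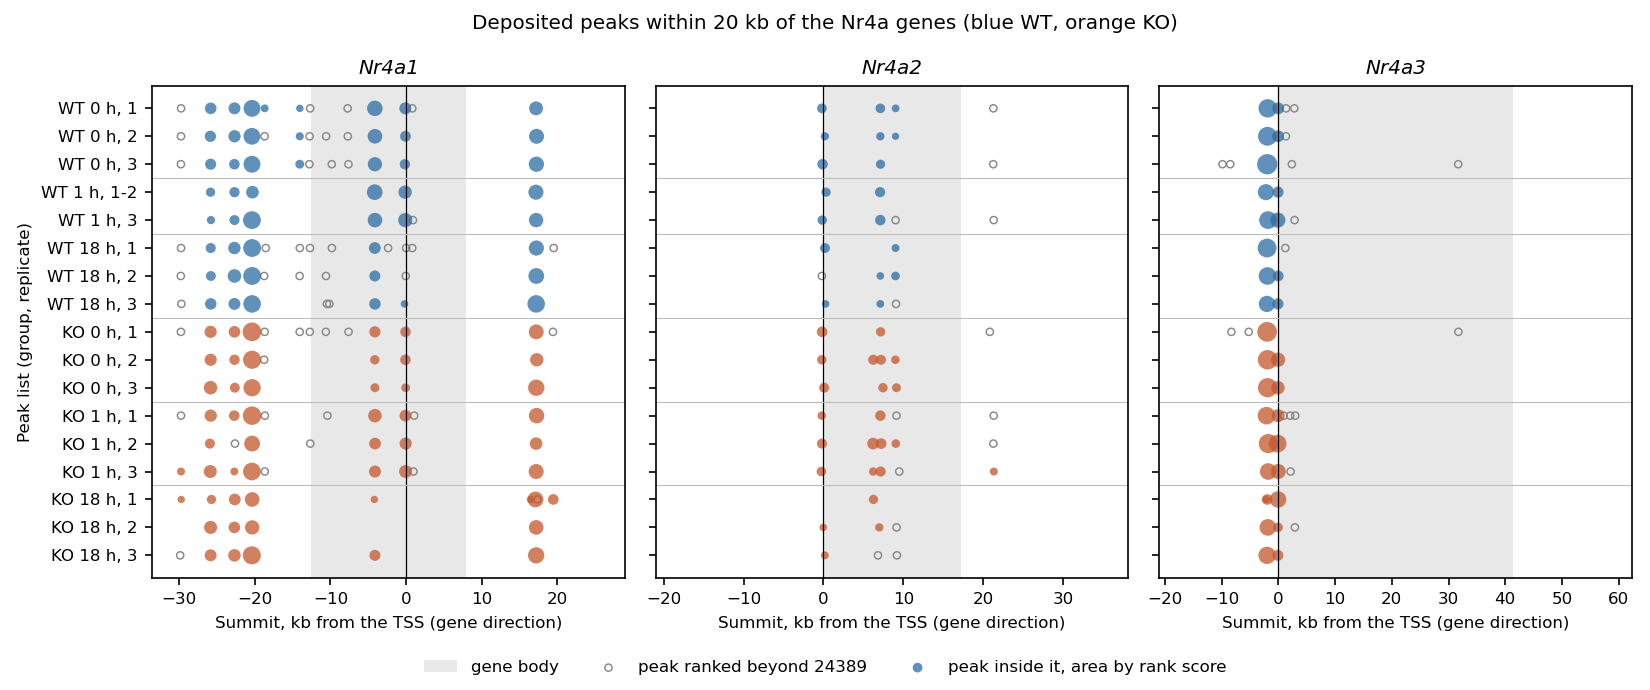
Every deposited peak in the 3 windows, by distance of its summit from the TSS in kb in gene direction (x axis) and by list (y axis, ordered by group); filled circles are peaks inside the best 24389 of their list, with area growing with the rank score, open circles are weaker peaks, and grey marks the gene body. The Nr4a1 promoter column is filled at 0 h and 1 h in both genotypes and empty in the 3 KO lists at 18 h, and the column at -4.1 kb has smaller circles in KO than in WT of the same time. The KO lists at 18 h were shallow, so a weak peak may be missing from them.

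The clearest LPS response of the family was at the promoter of Nr4a1, which moved up the lists at 1 h and down them by 18 h in both genotypes. The merged site spans chr15:101265724-101268098 and its summit lies 91 bp before the TSS at 101266846. In WT at 0 h it ranked 9643, 12796 and 14102. At 1 h it ranked 6958 and 5434, ahead of every WT list at 0 h. At 18 h it ranked 34955, 25930 and 23241, and only the last of these is inside the best 24389. In KO at 0 h the ranks were 13521, 13392 and 18588. At 1 h they were 10370, 9346 and 7567, again ahead of every KO list at 0 h. At 18 h no KO list had a peak there at any rank. These KO lists were shallower than the WT lists at 18 h (1.1 to 1.76 against 4.62 to 8.38 background reads per kb). They were also shorter (29568 to 36136 against 46364 to 61492 intervals), so a weak peak may be missing from them. The groups at different times thus did not overlap in either genotype. How many of all sites separate in this way was not counted, here or for the sites below. By exact permutation at every site, 7738 of 34155 were called at 1 h and 5101 at 18 h, so LPS differences of this kind were common. A change in the share of cells with an open site and a change in its openness per cell cannot be told apart in bulk ATAC-seq.

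At 1 h the Nr4a1 promoter score was 0.85 higher than at 0 h (SE 0.16, 95% confidence interval 0.52 to 1.18, limma adjusted p = 0.000821, exact permutation p = 0.005, the smallest that 200 regroupings allow). At 18 h the difference was -0.85 (SE 0.15, interval -1.16 to -0.53, limma adjusted p = 0.000635, exact permutation p = 0.005, the smallest that 400 allow). Each genotype taken alone gave a call at both times, although with summits ranked singly the 18 h difference in KO was not called (-0.60, limma adjusted p = 0.0805). In WT the score rose by 0.97 at 1 h (limma adjusted p = 0.0111; 14.4% of all sites called) and differed by -1.0 at 18 h (adjusted p = 0.00594; 10.7%). In KO it rose by 0.73 at 1 h (limma adjusted p = 0.0263; 15.8%) and differed by -0.70 at 18 h (adjusted p = 0.0341; 15.4%). With log2 depth as a covariate the differences were 0.93 at 1 h (limma adjusted p = 0.00589) and -0.84 at 18 h (adjusted p = 0.00115). Without the shallowest list, WT 1 h replicate 1-2, the 1 h difference was 0.94 (limma adjusted p = 0.00107), and without KO 18 h replicate 1 the 18 h difference was -0.85 (adjusted p = 0.000764). Limiting ranks at 10000, which 5 of 6 lists at 0 h exceed, left -0.01 at 18 h. Counting only peaks that cover 50% of the 2375 bp site turned the 1 h difference to -0.65 (adjusted p = 0.00967).

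Between genotypes the Nr4a1 promoter did not pass the test. KO minus WT was -0.30 (SE 0.13, interval -0.57 to -0.03), with a limma adjusted p of 0.445 and an unadjusted exact permutation p of 0.025. The Nr4a1 promoter therefore carried accessible chromatin in KO cells at 0 h and 1 h in all 6 lists. The peaks do not check the deletion itself, because from the second exon of the shorter transcripts to the gene end (chr15:101268928-101274795) 0 of 17 lists had a peak, WT included.

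A second site of Nr4a1 set the genotypes apart. It lies 4.1 kb before that TSS at chr15:101262097-101263296, in an intron of the longest transcript, which starts at 101254269, and is called the -4.1 kb element here. Its 201 bases around the summit, chr15:101262607-101262807 on the plus strand, are shown because this was the member site called between KO and WT. They are in lower case throughout because no searched motif matched.
Nr4a1 -4.1 kb element: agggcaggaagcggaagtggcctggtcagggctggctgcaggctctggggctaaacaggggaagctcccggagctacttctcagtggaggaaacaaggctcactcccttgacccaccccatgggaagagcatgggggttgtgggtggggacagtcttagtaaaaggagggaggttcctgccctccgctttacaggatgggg
The motifs sought on both strands were the NBRE (in 1.04% of such windows over all 34155 sites), AP-1 TGANTCA (19.9%), the cAMP-response element (1.22%) and its half-site (16.1%), C/EBP TTGCNNAA (11.2%), PU.1 GAGGAAGT (7.72%), and NF-kB (4.83%), the CArG box (0.984%) and the ISRE (3.63%) by name. The window held 3 CpG dinucleotides and 60.7% G and C, against 25 and 77.1% around the summit of the Nr4a1 promoter. Of these motifs, the window around that promoter summit held 1 match to NF-kB and 2 copies of the half-site.

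In WT at 0 h the -4.1 kb element ranked 3742, 4781 and 5434, and in KO at 0 h it ranked 11732, 16940 and 18588. At 1 h it ranked 3594 and 4971 in WT and 6613, 10441 and 9792 in KO. At 18 h it ranked 10130, 12154 and 10988 in WT, and 23854 and 12164 in KO, where replicate 2 had no peak. Every KO list thus ranked below every WT list of the same time, although at 18 h the nearest lists were close, at 12154 in WT and 12164 in KO. In reads, the summit held 162 to 293 in WT and 8 to 129 in KO at 0 h, before any correction for depth.

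KO minus WT at the -4.1 kb element was -1.20 (SE 0.18, interval -1.58 to -0.82, limma adjusted p = 0.00391, exact permutation p = 0.00025, the smallest that 4000 regroupings allow). By time it was -1.75 at 0 h (limma adjusted p = 0.0177; 0.278% of all sites called), -1.05 at 1 h (adjusted p = 0.194; 1.19%) and -0.80 at 18 h (adjusted p = 0.259; 0.817%). The genotypes also differed in depth, and with log2 depth as a covariate KO minus WT was -1.06 (limma adjusted p = 0.0371). By log2 summit fold, scaled to sites with a peak in all 17 lists, it was -0.83 (limma adjusted p = 0.00343). Leaving out any list gave -1.31 to -1.12, always called. With a peak counted only if it covered 50% of the site the call was lost, at -0.73 (adjusted p = 0.242), and by exact permutation at every site 0 of 34155 were called, the smallest adjusted p being 0.115. With every summit ranked singly, the promoter score minus the element score was 0.92 higher in KO than in WT, a description, since this pair was chosen after its values were seen.

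With LPS the -4.1 kb element was lower at 18 h, with a difference of -0.79 (SE 0.21, interval -1.24 to -0.34, limma adjusted p = 0.013, exact permutation p = 0.025). The WT lists, similar in depth at 0 h (5.11 to 9.75) and 18 h (4.62 to 8.38), gave -1.27 (limma adjusted p = 0.0124). Without KO 18 h replicate 1 the difference over both genotypes was -0.71 (adjusted p = 0.0233). In KO the 18 h ranks overlapped those at 0 h. The difference of the 18 h responses was 0.95 (interval 0.05 to 1.86) with a limma adjusted p of 0.739.

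**Figure D2:**
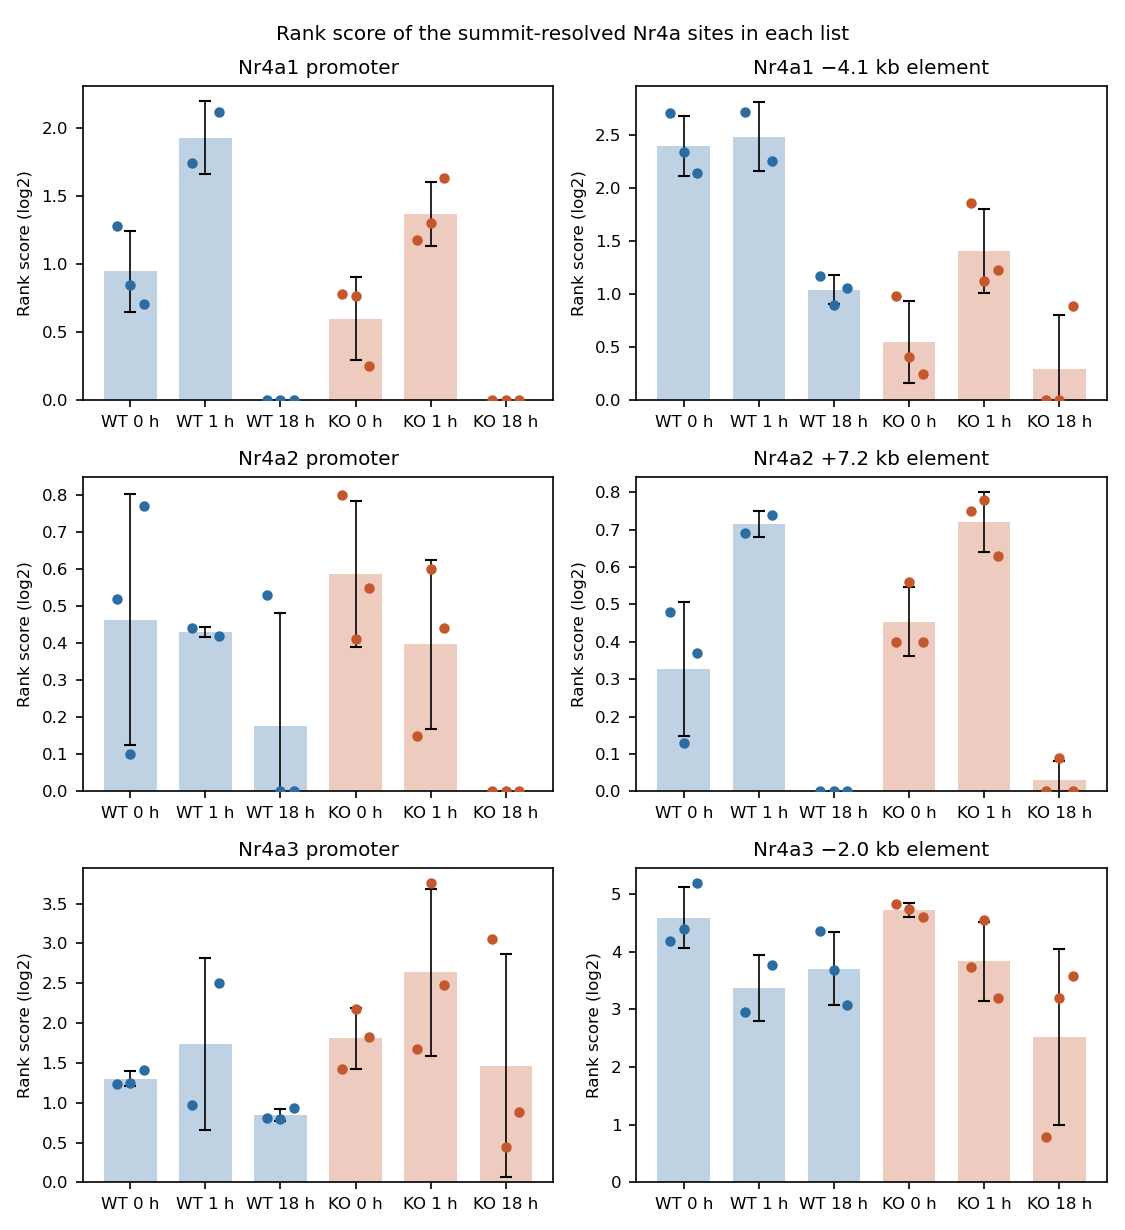
Rank score (y axis, log2 scale) of 6 sites in every list, by group (x axis); points are lists, bars group means and error bars SD, with n = 3 except n = 2 in WT at 1 h. Summits were ranked singly here. All 6 lists at 18 h are at 0 at the Nr4a1 promoter, and every KO list at 0 h lies below every WT list at 0 h at the -4.1 kb element.

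Chromosome 15 around Nr4a1 held other genotype calls. Within 5 Mb of the Nr4a1 TSS 8 of 291 sites were called between KO and WT (2.75%), the -4.1 kb element among them, and 7 of the 8 were lower in KO, beside 0.768% of chromosome 15 and 0.536% of all sites. Around Nr4a2 there were 0 of 100 and around Nr4a3 0 of 148, too few sites to tell from the share over all sites. Next to the -4.1 kb element, the nearest was 70.1 kb downstream of the TSS (KO minus WT -0.32, limma adjusted p = 0.0423). Whether the deletion, DNA linked to it or the loss of Nur77 goes with these sites cannot be told apart in this design.

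The other 6 sites in the Nr4a1 window were not called in any of the 5 comparisons. A strong CpG-rich intergenic site at -20.4 kb (chr15:101245887-101248565) had the best rank of the window, 1270, and ranked between that and 8262 over all 17 lists. Its 201-base window held 23 CpG dinucleotides. Sites at -25.9 kb and -22.7 kb had a peak in all 17 lists, at best ranks of 6560 and 6474. The -25.9 kb site was 0.57 higher in KO (interval 0.18 to 0.97, limma adjusted p = 0.264). The site at +17.2 kb covers the promoter of the neighbouring gene Atg101, an autophagy factor, and was present in all 17 lists with ranks of 1909 to 8384. Weak sites at -29.8 kb and -14.1 kb were inside the best 24389 in 2 and 3 lists. The 3 were the WT lists at 0 h, through which alone this site entered the comparison, so its difference from the other groups was fixed by the filter.

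At Nr4a2 the merged sites were a promoter site, chr2:57123267-57124655 with its summit 166 bp before the TSS, and an internal site of 3611 bp, chr2:57114265-57117875. The internal site overlaps the start of a shorter transcript and held 4 separable summits, so summits were also ranked singly over 37475 summit sites, with 26558 as the rank limit. Of the 16 summit sites at the family, 2 were called at 1 h (27.8% of all summit sites), 5 at 18 h (22.7%) and 1 in KO (0.608%). All Nr4a2 summits were weak. The best rank of any was 12142, and in the shallowest list they rested on 5 to 6 reads.

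The Nr4a2 promoter was lower at 18 h. In WT its summit ranked 18577, 24812 and 15524 at 0 h, 19544 and 19804 at 1 h, and 18388, 31209 and 28630 at 18 h. In KO it ranked 15214, 20014 and 18203 at 0 h, and 23994, 17531 and 19550 at 1 h. At 18 h it ranked 27946 and 27098 and was absent from replicate 1. The KO lists at 18 h all lay below those at 0 h, while in WT the lists overlapped. Over both genotypes the merged site differed by -0.47 (SE 0.14, interval -0.77 to -0.17, limma adjusted p = 0.0251, exact permutation p = 0.02) and the summit site by -0.44 (limma adjusted p = 0.0301). Leaving out any 1 of 5 lists (WT 0 h replicates 1 and 3, WT 18 h replicates 2 and 3, KO 0 h replicate 1) ended the call, with adjusted p between 0.0558 and 0.0747, and without KO 18 h replicate 1 the difference was -0.45 (adjusted p = 0.0393). At 1 h the merged promoter site differed by -0.11 (adjusted p = 0.652), and KO minus WT was -0.01 (interval -0.27 to 0.24, adjusted p = 0.975).

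Inside Nr4a2, a summit at +7.2 kb, in an intron, moved in the same direction as the Nr4a1 promoter. Its 201 bases, chr2:57116675-57116875 on the minus strand, are shown because like the promoters they hold the CGTCA half-site. Capitals mark its 3 copies and 1 match to the ISRE.
Nr4a2 +7.2 kb element: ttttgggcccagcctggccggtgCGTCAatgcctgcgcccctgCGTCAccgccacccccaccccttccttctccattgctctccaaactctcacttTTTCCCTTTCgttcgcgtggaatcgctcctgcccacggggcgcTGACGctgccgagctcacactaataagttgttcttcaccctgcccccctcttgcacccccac
In WT it ranked 19054, 24322 and 20494 at 0 h, 16430 and 15928 at 1 h, and 31438, 28162 and 27375 at 18 h. In KO it ranked 20190, 18000 and 20102 at 0 h, and 15762, 15432 and 17130 at 1 h. At 18 h only 1 KO list held it, at rank 24916. The 3 times did not overlap in either genotype, a pattern whose share over all sites was not counted. The score rose by 0.33 at 1 h (SE 0.10, interval 0.13 to 0.53, limma adjusted p = 0.0171, exact permutation p = 0.005) and differed by -0.37 at 18 h (SE 0.09, interval -0.57 to -0.18, limma adjusted p = 0.00661, exact permutation p = 0.005). These are small steps near the rank limit. As 1 merged internal site the region differed by 0.36 at 1 h and -0.28 at 18 h, with adjusted p of 0.06 and 0.132, and without KO 18 h replicate 1 by 0.36 and -0.34 (limma adjusted p = 0.0331 and 0.0494). The promoter score minus the +7.2 kb score fell by 0.44 at 1 h, again a pair chosen after its values were seen.

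The best rank of any site of the family, 676, was that of the merged Nr4a3 site in a WT list at 0 h, with its summit 2.0 kb before the TSS. Its 201 bases around the summit, chr4:48043089-48043289 on the plus strand, are shown because this element was called at 18 h. No searched motif matched.
Nr4a3 -2.0 kb element: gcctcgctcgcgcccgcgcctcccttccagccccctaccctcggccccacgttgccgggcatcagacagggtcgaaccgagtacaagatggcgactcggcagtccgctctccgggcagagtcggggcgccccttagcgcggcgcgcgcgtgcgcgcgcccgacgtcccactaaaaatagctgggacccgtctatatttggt
The window held 28 CpG dinucleotides and 69.2% G and C, and lies outside annotated genes. Merged across lists, this element and the promoter formed a single site, chr4:48042448-48046774, so only summits separate them.

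With summits ranked singly, the -2.0 kb element of Nr4a3 ranked 1463, 1261 and 730 in WT at 0 h, 3419 and 1948 at 1 h, and 1299, 2061 and 3135 at 18 h. In KO it ranked 931, 996 and 1098 at 0 h, 1983, 1136 and 2890 at 1 h, and 15450, 2893 and 2226 at 18 h. It was thus best ranked at 0 h: every list at 1 h lay below every list at 0 h of its genotype, and so did every KO list at 18 h. The 15450 belongs to KO 18 h replicate 1, the list with narrow intervals, in which the merged site ranked 2770 through its promoter summit and not through this element. At 18 h the difference was -1.54 (SE 0.43, limma adjusted p = 0.0167, exact permutation p = 0.01), and without that list -1.11 (adjusted p = 0.0158). At 1 h it was -1.06 (SE 0.46, limma adjusted p = 0.099, exact permutation p = 0.005), and without that list the same -1.06 was called (adjusted p = 0.0165). As a merged site the region gave -1.03 at 1 h (SE 0.31, limma adjusted p = 0.0224) and -1.12 at 18 h (SE 0.29, adjusted p = 0.0111). The 18 h call of the merged site was lost with 50% cover. The 1 h call of the merged site was lost with log2 depth as a covariate (-0.85, adjusted p = 0.185), with 50% cover (-1.67, adjusted p = 0.292) and without WT 1 h replicate 1-2 (-0.83, adjusted p = 0.108), WT 0 h replicate 3 (-0.88, adjusted p = 0.0607) or KO 1 h replicate 3 (-0.87, adjusted p = 0.055).

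The Nr4a3 promoter, with its summit 140 bp before the TSS, was not called in any comparison. It ranked 11265, 11148 and 9995 in WT at 0 h, 13590 and 4692 at 1 h, and 15199, 15254 and 13961 at 18 h. In KO it ranked 9958, 5869 and 7477 at 0 h, 8315, 1965 and 4773 at 1 h, and 3176, 19554 and 14372 at 18 h. The WT lists at 18 h lay below those at 0 h, while the KO lists overlapped at all times. The differences were 0.63 at 1 h (interval -0.33 to 1.59), -0.40 at 18 h (interval -1.31 to 0.51) and 0.68 for KO minus WT (interval -0.09 to 1.45), none of them called by limma (adjusted p = 0.332, 0.557 and 0.565). The promoter score minus the element score was 1.69 higher at 1 h than at 0 h and 1.14 higher at 18 h, or 0.31 at 18 h without KO 18 h replicate 1. These are descriptions of a pair chosen after its values were seen.

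**Figure D3:**
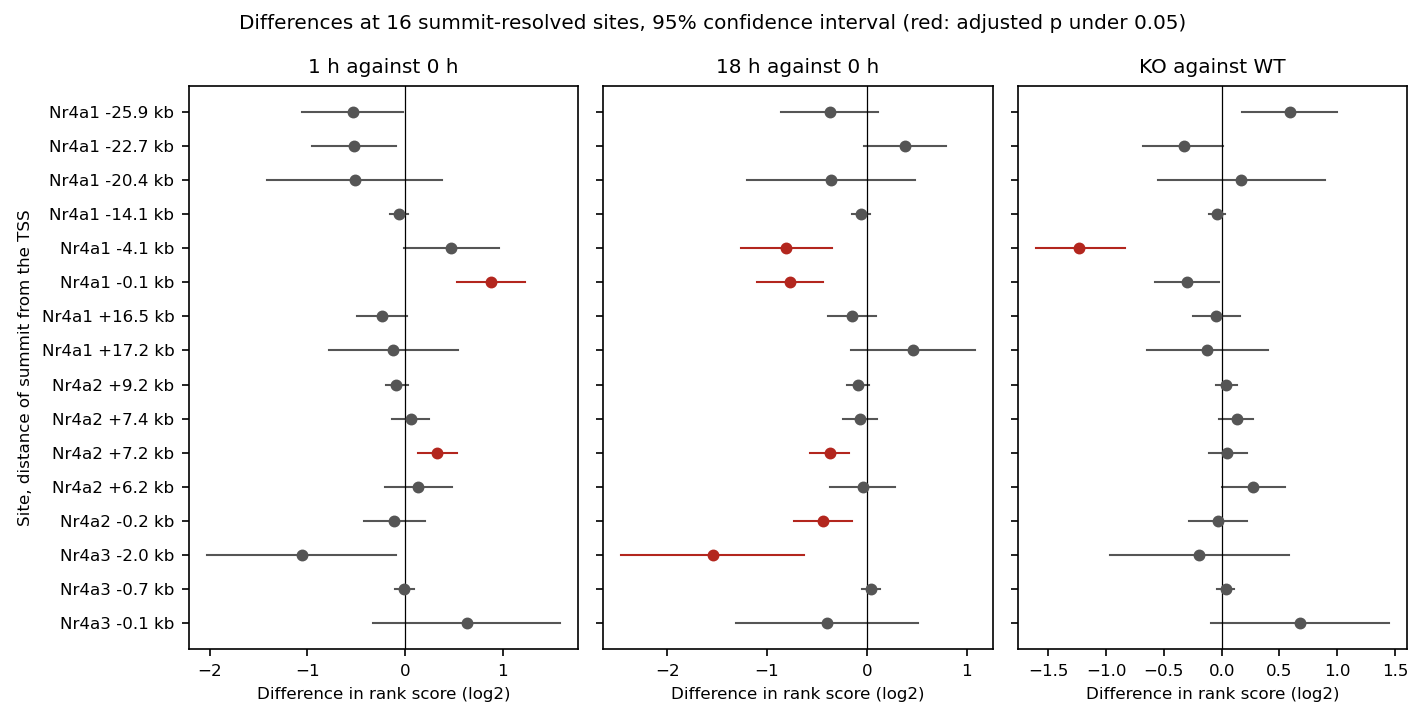
Differences in rank score (x axis, log2 scale) with 95% confidence intervals at the 16 summit sites, ordered by gene and by distance of the summit from the TSS (y axis), for 1 h against 0 h, 18 h against 0 h and KO against WT; red marks a limma adjusted p under 0.05. The calls at 18 h all lie left of 0, and the only KO call is the Nr4a1 site at -4.1 kb.

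Nr4a1 was then set against its paralogues, with 1 value per list: the rank score of the Nr4a1 promoter minus the mean of those of Nr4a2 and Nr4a3. Each gene is represented by its best-ranked promoter site, which is the internal site at Nr4a2 and the merged site at Nr4a3. In WT the value was -1.03, -1.38 and -2.03 at 0 h and -0.07 and -0.14 at 1 h. In KO it was -1.81, -1.86 and -2.18 at 0 h and -1.05, -1.51 and -0.29 at 1 h. All lists at 1 h were above those at 0 h of their genotype. The change at 1 h was 1.19 (p = 0.005 by exact permutation and 0.015 after adjustment over 3 comparisons), made up of 0.85 at Nr4a1, 0.36 at Nr4a2 and -1.03 at Nr4a3. At 18 h the change was -0.15 (exact permutation p = 0.485) and for KO minus WT -0.39 (p = 0.103). The 18 h value had no stable direction: it was 0.55 with ranks limited at 10000 (exact permutation p = 0.01) and -0.86 by log2 summit fold (p = 0.005).

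With summits ranked singly, where the promoters proper are compared, the change at 1 h was 0.61 and did not pass the threshold (exact permutation p = 0.05, adjusted p = 0.075 over 3 comparisons). It was 0.99 against Nr4a2 alone (exact permutation p = 0.005, adjusted p = 0.045 over 9 contrasts) and 0.24 against Nr4a3 alone (exact permutation p = 0.555). With merged sites these were 0.49 (p = 0.02, adjusted p = 0.036) and 1.88 (p = 0.005, adjusted p = 0.0225), each by exact permutation. Merged sites also gave a change against Nr4a2 alone of -0.57 at 18 h (exact permutation p = 0.01, adjusted p = 0.03) and of -0.41 for KO minus WT (p = 0.0192, adjusted p = 0.036), while summits gave -0.34 (p = 0.16) and -0.27 (p = 0.122). By summits, KO minus WT against both paralogues was -0.63 (exact permutation p = 0.0175, adjusted p = 0.0525 over 3 comparisons), with -0.30 at Nr4a1, -0.03 at Nr4a2 and 0.68 at Nr4a3, and -0.49 without KO 18 h replicate 1 (p = 0.0435). The contrast at 1 h between Nr4a1 and Nr4a2 was thus larger than the spread between lists in both readings. These readings take different Nr4a2 sites, the internal site when merged and the promoter by summits. The contrast between Nr4a1 and Nr4a3 depended on whether the -2.0 kb element was counted with the promoter.

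**Figure D4:**
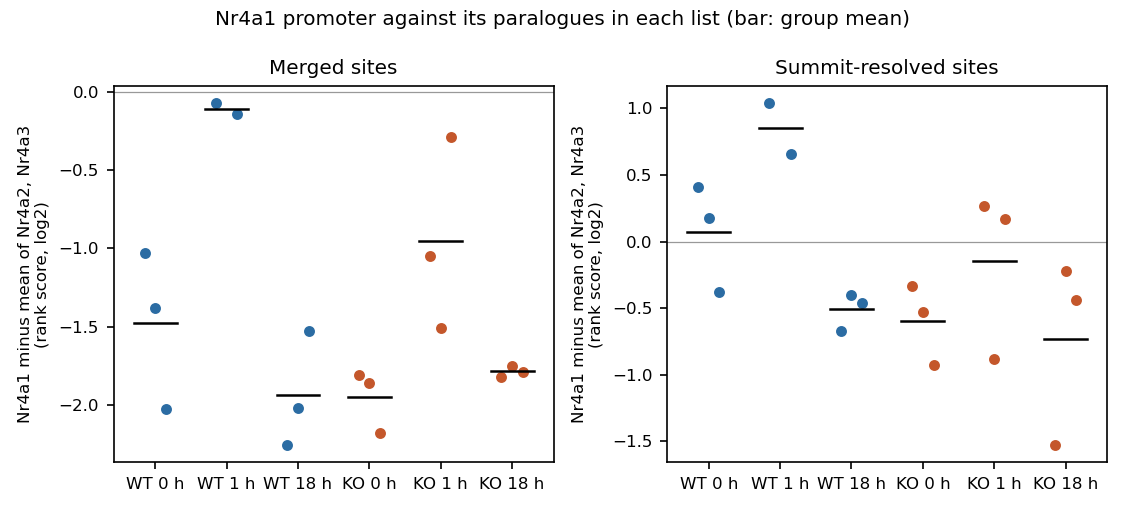
Rank score of the Nr4a1 promoter minus the mean of its 2 paralogues (y axis, log2 scale) in every list, by group (x axis), with merged sites on the left and summit sites on the right; bars are group means. On the left every list at 1 h lies above every list at 0 h of its genotype, from -1.51 to -0.07 against -2.18 to -1.03, while on the right KO 1 h replicate 2 falls among the KO lists at 0 h.

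Among promoter sites of 11011 other genes, those whose rank score over the 17 lists was most like that of Nr4a1 were Synj2 (Pearson r = 0.92), Pax6 (0.915), Amh (0.911), Fem1b (0.91) and Anxa7 (0.91). For the internal Nr4a2 site they were Slco2b1 (r = 0.926), Malt1 (0.907), Eml6 (0.896), Pax6 (0.885) and S100a3 (0.87). For the merged Nr4a3 site they were Atp1b3 (r = 0.899), Slpi (0.897), P2ry1 (0.896), Ube2q2 (0.885) and Rbmx (0.871). Between members r was 0.761 for Nr4a1 with Nr4a2, 0.053 for Nr4a1 with Nr4a3 and 0.157 for Nr4a2 with Nr4a3. All points of a list share its depth, and these values are descriptions.

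Other genes of the pathway give the setting, with 1 promoter site per gene. Of 22 other immediate-early genes, 4 were higher and 1 lower at 1 h, beside 5.18% and 18.1% of all promoters. Those with the widest differences were Nfkbia, the inhibitor of NF-kB (4.29, limma adjusted p = 1.12e-05), the phosphatase Dusp2 (1.36) and Ier2 (1.00), all higher, and Fos, a subunit of AP-1 (-0.85). At 18 h, 2 were higher and 5 lower, beside 4.53% and 12.5%, with Jun (-1.41), Atf3 (-1.38) and Myc (-1.29) lower and Junb (1.12) higher. Of 14 regulators and partners of the family, 1 was higher at 1 h, Creb1, which binds cAMP-response elements (1.66), and 4 were lower, among them the MEF2 factors Mef2a (-1.86) and Mef2c (-1.81). At 18 h, 0 were higher and 2 lower, Mef2c (-1.83) and Mef2a (-1.76).

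Of 46 other nuclear receptors, 22 had a promoter site. At 1 h, 0 were higher and 5 lower, beside 5.18% and 18.1% of all promoters, led by the orphan receptor Nr2c1 (-0.77), the glucocorticoid receptor Nr3c1 (-0.74), Pparg (-0.63) and Rora (-0.58). At 18 h, 1 was higher, the LXR gene Nr1h3 (0.73, limma adjusted p = 4.9e-05), and 5 were lower, beside 4.53% and 12.5%, led by the retinoic acid receptor Rara (-1.03), Thrb (-0.59) and Rora (-0.49). The medians of the 3 lists lay between -0.31 and -0.09 at 1 h and at -0.31 at 18 h, beside -0.28 and -0.15 over all promoters, so the rise of the Nr4a1 promoter at 1 h went against the general direction of promoters. Between KO and WT none of the 22, 22 and 14 promoters was called by limma (0.237% of all promoters), with 4, 1 and 2 at an unadjusted p under 0.05, which 3352 of all 34155 sites had.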

How the data were processed

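ATAC-seq peak lists of 17 samples were used, each as deposited. Per the study's methods and the labels, the authors trimmed reads with cutadapt 2.6, mapped them to mm10 and ran the snakeATAC pipeline, and compared groups with DiffBind 3.0.15, which needs reads per site and was not run here. The peak caller is not given in the sources used here. Per the deposited peak names, reads were filtered on mapping quality and duplicates were removed, and peaks were called per sample. Each deposited entry gives the fold, a linear ratio of summit pileup over background, the -log10 p and -log10 q of the summit, its position, and a whole-number score, which was not used. These values are not scaled between lists, and -log10 p grows with depth.

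Entries that share an interval were collapsed to the most significant summit, and intervals were ranked by -log10 p within each list, ties at their mean rank. Sites are intervals inside the best 24389 of at least 2 lists, merged where they overlap by 1 bp. Rank scores were fitted with limma 3.58.1 (R 4.3.3; trend, 6 group means) over 34155 sites, with Benjamini-Hochberg adjustment. Exact two-sided permutation tests regrouped lists within genotype for LPS and within time for genotype. Depth was taken as background reads per kb, from the pileup and fold of the summits. A site within 1 kb of a TSS stood for the promoter of a gene, the best ranked where there were several. Every merged site at the family called in a comparison over both genotypes or all times is given in full, as is the promoter at the TSS of each member. Other merged sites are given by position with ranks, differences or counts of lists. Summit sites that are neither such a promoter nor an element named here are only counted. From each gene list up to 4 genes with the widest called change are given. Alternatives were the rank limit, the filter on q, the overlap, summits ranked singly, the summit fold, depth as a covariate, the replicate number as a block and each list left out. The code was tested on simulated data. The members, gene lists and tests were chosen with earlier results of these data known. The half-site search, the differences between sites of a locus and the summit ranking without KO 18 h replicate 1 were added after values had been seen.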

Additional observations from a re-analysis of the deposited data

How the results depend on the processing

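Of the sites at the 3 genes, 2 were called at 1 h, and 4 without a rank limit, 1 with depth as a covariate, 1 with the replicate block and 1 to 4 when a list was left out (1 without WT 0 h replicate 3 or WT 1 h replicate 1-2, 4 without KO 18 h replicate 1). At 18 h, 4 were called, and 2 with ranks limited at 10000, 1 with 50% cover, 1 by exact permutation of each site and 3 to 5 with a list left out. For KO against WT, 1 was called, and 0 with 50% cover, 2 by summit fold, 0 by exact permutation and 1 with any list left out. Over the sites that stood for the 3 promoters, 4 differences were called, 2 at the Nr4a1 promoter and 2 at the merged Nr4a3 site that also holds the -2.0 kb element, and 2 with 50% cover and 3 to 6 with a list left out. The Nr4a1 promoter against its paralogues at 1 h (1.19) gave 0.61 with summits ranked singly, also without KO 18 h replicate 1, 0.26 with 50% cover, 1.22 with the replicate block (exact permutation p = 0.125, the smallest that its 4 pairs allow, so this test could not pass), and 1.02 to 1.33 with a list left out. At 18 h (-0.15) it gave 0.55 with ranks limited at 10000 (exact permutation p = 0.01), -0.86 by summit fold (p = 0.005 by exact permutation) and -0.29 to -0.04 with a list left out. For KO against WT (-0.39) it gave -0.63 by summits, -0.49 by summits without KO 18 h replicate 1, 0.02 with 50% cover, and -0.50 to -0.29 with a list left out, passing the threshold without WT 0 h replicate 3 (-0.48, exact permutation p = 0.045).

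With 50% cover the sign also turned at the Nr4a1 promoter at 1 h (-0.65), at the internal Nr4a2 site at 1 h (-0.16) and in KO (-0.02), at the Nr4a2 promoter in KO (0.04) and at the Nr4a3 site in KO (-0.52), and the 1 h call at the Nr4a3 site (-1.67) and the 18 h calls at the -4.1 kb element (-1.0), the Nr4a2 promoter (-0.50) and the Nr4a3 site (-0.94) were lost. KO against WT at the Nr4a2 promoter (-0.01) also turned by summit fold (0.05), with depth as a covariate (0.02) and in the range of lists left out (-0.07 to 0.06), and at the Nr4a3 site (0.07) by summits (-0.20), with the block (-0.09) and in that range (-0.06 to 0.20); the Nr4a2 promoter at 1 h turned by summit fold (0.10). Of the site differences in this paragraph whose sign turned, that of the Nr4a1 promoter at 1 h was called and no other. The causes were not tested. Same-numbered lists did not deviate together (35 pairs, r from -0.226 to 0.206, 4 over 0.1; 4 of 16 lists were most like a list of their own number), so the numbers do not pair the lists. With the block the 1 h call at the Nr4a3 site was lost (-0.78, limma adjusted p = 0.19), and KO against WT at the -4.1 kb element was -1.12 (limma adjusted p = 0.0264). Depth limits the shallow lists, where a weak site rests on few reads.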
